A study of Nasonia vitripennis with 23 samples.

Results

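Females of the parasitoid wasp Nasonia vitripennis that oviposited in five-foundress groups were compared with females that oviposited in 10-foundress groups. The comparison took the 7 five-foundress libraries, replicates 10 to 16, and the 8 10-foundress libraries, replicates 17 to 24, which are 15 of the 23 libraries of the study. The libraries were chosen by their labelled foundress number, so that no measured value entered the choice. Females of both groups had company while ovipositing, and the groups differed in how many co-foundresses were present.

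In local mate competition, sons of a few mothers compete with each other for mates, and a mother that lays with other females is selected to produce relatively more sons. A Nasonia female sets the sex of each egg by fertilizing it or not, since fertilized eggs become daughters and unfertilized eggs become sons. Odorant receptors of the antennae and visual pigments of the eye are among the parts of the head that can perceive co-foundresses and hosts. Receptors and channels of the nervous system take part in processing such cues. The comparison asked whether the level of any transcript in the head differed with the size of the group.

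Focal females were of the AsymC strain, which was cured of Wolbachia, and all co-foundresses were of the red-eye mutant STDR strain. The focal female of the five-foundress group had 4 co-foundresses and that of the 10-foundress group had 9. The focal females had been given a host and then honey beforehand, and all females had access to 3 hosts during 3 h, after which heads of focal females were taken. Each library was made from poly(A) RNA of 12 pooled heads, so that the pool was the unit of replication, and a level is that of the whole head with its brain, eyes, antennae, muscle and fat body. In such bulk samples, fewer cells of a type and less RNA per cell cannot be told apart. The study balanced the set-up over several days, but the labels do not tie pools to days, so that a day could not be entered in the fit.

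Between 25194329 and 69696501 reads were counted on genes in the five-foundress libraries (median 38984696) and between 29308446 and 51134453 in the 10-foundress libraries (median 34615440). Reads were found on 12345 to 12774 genes per five-foundress library and on 12343 to 12723 genes per 10-foundress library. All 49 pairs of libraries of the same group differed by more than counting noise (chi-square per gene of 31.3 to 623). The long wavelength opsin Lop1, a photoreceptor pigment, was abundant in all 15 libraries, and the synaptic calcium sensor Syt1 was present in all of them. Levels are given as CPM, read counts scaled to a common library size, after normalization by trimmed mean of M-values (TMM), and differences as log2 fold changes of the 10-foundress over the five-foundress libraries with standard errors (SE).

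No gene differed between the groups past the threshold. Of the 13599 genes tested, 0 (0%) had an adjusted p below 0.05 in edgeR's quasi-likelihood test with Benjamini-Hochberg adjustment, and the smallest adjusted p was 1. Before adjustment, 246 genes (1.81%) had a p below 0.05 in that test, a smaller share than evenly spread p-values would give. Of these, 155 (1.14% of the genes tested) had a higher and 91 (0.669%) a lower mean level in the 10-foundress libraries. DESeq2 gave 204 such genes (1.5%) and limma voom with sample quality weights 1018 (7.49%). Neither gave a gene with an adjusted p below 0.05.

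Most differences were small and were bounded closely by the spread between pools. The log2 fold change was above 0 in 7229 genes, or 53.2% of those tested, with a median of 0.01. A mean of at least 100 counts was reached by 9343 genes. In these the absolute log2 fold change had a median of 0.09, beside a median SE of 0.15. The 95% interval of the difference lay within 1.5-fold in either direction for 6956 (74.5%) of these 9343 genes and within 2-fold for 8884 (95.1%). For the other 459 genes the interval reached beyond 2-fold. The plot of the differences against the mean level shows this narrow band, with a few genes far below it.

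**Figure D1:**
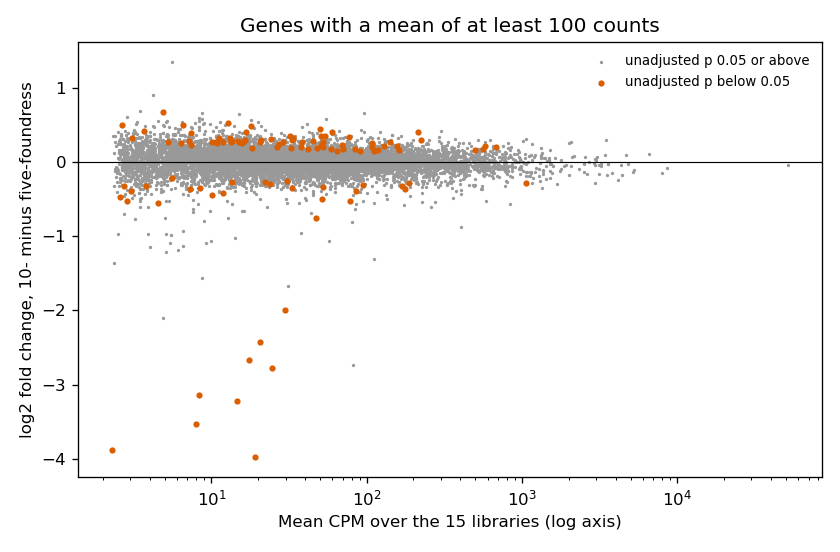
Log2 fold change of the 10- over the five-foundress libraries (y axis) against the mean CPM of the 15 libraries (x axis, log scale) for the 9343 genes whose mean was 100 counts or more. Each point is 1 gene, and orange points are the 105 genes with an unadjusted p below 0.05 in edgeR's test, of which 70 lie above and 35 below 0.

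The groups did not separate as wholes either. The first and second principal components held 26.1% and 22.4% of the variance of the 500 genes that varied most, and the foundress group accounted for 5.06% of it. This share was no larger than that given by most assignments of the 15 libraries to groups of the same sizes (exact permutation p = 0.743 over all 6435 assignments). The pools of the 10-foundress group varied more among themselves than those of the five-foundress group. The median SD of log2 CPM was 0.24 among five-foundress and 0.34 among 10-foundress libraries, and the SD was above 1 in 166 (1.78%) and 267 (2.86%) of the 9343 genes, which is given as a description without a test.

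Of the 10 genes with the smallest p among those of 100 counts or more on average, all known only by a locus number, 8 had small differences. The other 2, LOC100114502 and LOC100118178, had large ones that came from few pools and are described further on. LOC100680219 was at 152.6 to 228.2 CPM in the five-foundress libraries (median 180.9) and at 171.3 to 307.5 in the 10-foundress libraries (median 233.7). The 10-foundress group was higher on average, but its replicates 17 and 18 lay within the five-foundress range. Its log2 fold change was 0.40 ± 0.12 (SE) with an unadjusted p of 0.00344.

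LOC100122036 had a still narrower spread, with 113.5 to 130.3 CPM (median 118.6) against 123.0 to 154.5 CPM (median 136.1). Its log2 fold change was 0.22 ± 0.07 (SE), and 6 of the 8 10-foundress libraries lay above every five-foundress library. LOC103317637 was at a median of 48.3 against 63.8 CPM (log2 fold change 0.34 ± 0.12). In that gene 10-foundress replicates 17 and 18 again lay inside the five-foundress range.

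Lower means in the 10-foundress group were found for LOC100122199, with medians of 199.2 and 146.6 CPM (log2 fold change −0.36 ± 0.13). LOC100115714 had medians of 68.4 and 41.99 CPM (−0.50 ± 0.18), and its groups overlapped because five-foundress replicates 10 and 11 were as low as the 10-foundress libraries. The rest of the 8 were LOC100122210 (−0.27 ± 0.10), LOC100117617 (−0.48 ± 0.17) and LOC100123696 (0.25 ± 0.09). The log2 fold changes of all 8 kept their sign when any single library was left out.

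Only LOC100680173 had groups that did not overlap, which is 1 gene or 0.00735% of the genes tested. It was named after its values had been seen. Its level was 2.77 to 4.15 CPM in the five-foundress libraries (median 3.47) and 2.07 to 2.67 CPM in the 10-foundress libraries (median 2.36). The log2 fold change was −0.53 ± 0.20 (SE), and its unadjusted p of 0.0145 was not among the smallest. The gap between the groups was small beside the range within either of them.

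**Figure D2:**
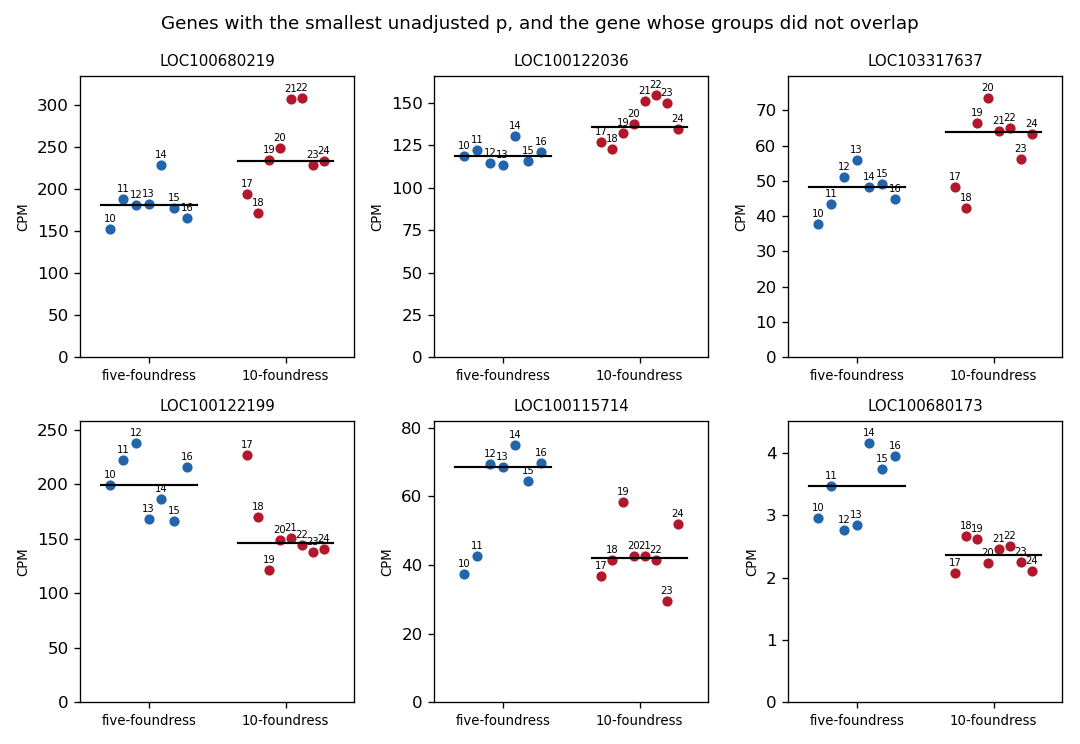
CPM of 6 genes (y axis, from 0) in each five-foundress (blue) and 10-foundress (red) library, with the replicate number above each point and a black line at the group median. The groups overlap in every panel but that of LOC100680173, where the five-foundress libraries begin at 2.77 and the 10-foundress libraries end at 2.67 CPM.

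Among genes with a higher mean in the 10-foundress group, 1 pool stood out. Of the 70 genes of 100 counts or more on average with an unadjusted p below 0.05, 55 had their highest level of the 15 libraries in 10-foundress replicate 22 and 8 had it in replicate 21. The same genes were lowest in five-foundress replicate 13 in 32 cases and in replicate 10 in 18 cases. When replicate 22 was left out, all 70 kept a log2 fold change above 0, but their median was 0.21 instead of 0.27, and 15 remained at an unadjusted p below 0.05 in edgeR's test. None of the 70 differed by more than 2-fold, and 69 differed by less than 1.5-fold. These 70 genes were picked for a higher 10-foundress mean. Peaks in its pools, lows in five-foundress pools, the kept signs and the weaker values without replicate 22 follow in part from that choice. The share of all genes with their highest level in replicate 22 was not counted.

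The 5 largest of these differences show the pattern. LOC103316147 was at 2.55 to 5.99 CPM in the five-foundress group and reached 11.3 CPM in replicate 22 of the 10-foundress group, while replicate 24 was at 2.37 CPM, below all five-foundress libraries (log2 fold change 0.67 ± 0.28). The mitochondrial ribosomal protein gene mRpL17 was at 6.21 to 13.9 CPM against 8.42 to 25.2 CPM, again with replicate 22 highest (0.53 ± 0.21). LOC100678076 (0.50 ± 0.24) and LOC100114640 (0.48 ± 0.22) were likewise highest in replicate 22.

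Mirlet7, the locus of the let-7 microRNA, was at 1.73 to 2.58 CPM in the five-foundress and at 1.73 to 4.39 CPM in the 10-foundress libraries (log2 fold change 0.49 ± 0.20). Its highest level was in replicate 21, with replicate 22 next. Reads on this locus in poly(A) libraries come from its longer transcripts and do not measure the mature microRNA.

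Among genes of 100 counts or more on average with an unadjusted p below 0.05 in edgeR's test, all differences beyond 2-fold were lower means in the 10-foundress group. Of the 35 such genes with a lower mean, 9 differed by more than 2-fold, and each of the 9 had its highest level in five-foundress replicate 11 or 15. Of these, 6 had medians of 3.26 CPM or less in both groups. The medians were higher in SP76 (8.44 and 3.89 CPM), LOC100117405 (10.8 and 5.23 CPM) and LOC100678536 (15.8 and 11.9 CPM). As these genes were picked for a lower 10-foundress mean, a peak in a five-foundress pool follows in part from the choice.

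LOC100120914, with the largest difference (log2 fold change −3.97 ± 1.49), was at 248.9 CPM in five-foundress replicate 11 and at 12.6 CPM in replicate 15. The other 5 five-foundress libraries were at 0.47 to 1.18 CPM. Of the 10-foundress libraries, replicate 21 was at 12.7 and replicate 17 at 3.83 CPM, and the medians of the groups, 0.79 and 0.44 CPM, lay close together. Without replicate 11 the log2 fold change was −0.08, and without replicates 11 and 15 together it was 1.78.

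LOC100118178 was at 171.6 and 14.9 CPM in five-foundress replicates 11 and 15 and at 13.9 and 5.24 CPM in 10-foundress replicates 17 and 21, and at 4.48 CPM or less elsewhere. LOC100123845 was at 77.1 and 24.4 CPM in the former pair and at 4.10 and 3.31 CPM in the latter. Its log2 fold change of −3.53 ± 1.35 became 0.15 without replicates 11 and 15, although its median was lower in the five-foundress group (0.40 CPM) than in the 10-foundress group (0.70 CPM). LOC100114502 (−3.88 ± 1.41) became 0.35, LOC100118178 (−3.22 ± 1.20) became 0.85 and LOC100114068 (−2.67 ± 1.21) became 0.54 on the same removal. The same few pools of both groups were thus the high ones for each of these genes.

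A pair of named members of this set were the serine protease gene SP76 and the serine protease homologue SPH125, a relative that is named for its likeness to these enzymes. SP76 was at 124.8 and 137.8 CPM in five-foundress replicates 11 and 15, at 33.7 CPM in replicate 13 and at 8.44 CPM or less in the other 4, and at 0.39 to 19.4 CPM in the 10-foundress libraries. SPH125 was at 60.6 and 39.1 CPM in replicates 11 and 15 and at 11.7 CPM in 10-foundress replicate 17. Their log2 fold changes were −2.77 ± 1.18 and −3.14 ± 1.45, and −0.68 and −0.17 without replicates 11 and 15. LOC100117405 (−2.43 ± 0.95) and LOC100678536 (−1.99 ± 0.92) completed the 9, at −0.28 and −0.44 without these 2 libraries.

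**Figure D3:**
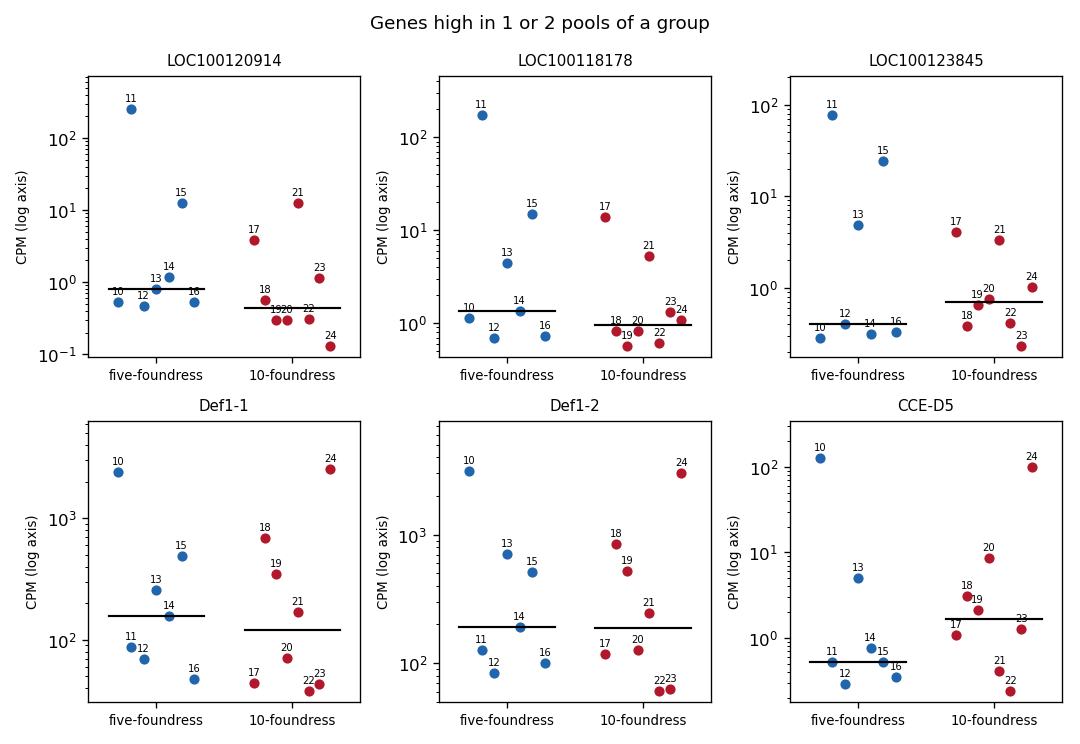
CPM (y axis, log scale) of 3 genes that were high in five-foundress replicates 11 and 15 (upper row) and of the defensin genes Def1-1 and Def1-2 and the carboxylesterase gene CCE-D5 (lower row) in each library, with replicate numbers and a black line at the group median. LOC100120914 reaches 248.9 CPM in replicate 11, and Def1-1 reaches 2383 CPM in replicate 10 and 2559 CPM in replicate 24.

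Antimicrobial defences showed equally large differences between pools that cancelled between the groups. The list of immune genes held 7 genes, all tested and all with a mean of at least 100 counts. None had an unadjusted p below 0.05, 2 had a higher and 5 a lower mean in the 10-foundress group, and the median log2 fold change was −0.04.

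Def1-1, which encodes a defensin, a secreted antimicrobial peptide, was at 48.1 to 2383 CPM in the five-foundress libraries (median 157.8) and at 37.8 to 2559 CPM in the 10-foundress libraries (median 120.9). Five-foundress replicate 10 and 10-foundress replicate 24 were the extremes, and the next highest were at 491.8 and 689.3 CPM. The log2 fold change was −0.01 ± 1.10 (SE), was 1.42 without replicate 10, and its sign also changed when other single libraries were left out.

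Def1-2, the other defensin, had the same high pools, at 3145 and 3015 CPM against medians of 191.6 and 187.3 CPM (log2 fold change −0.15 ± 1.00). CCE-D5, a carboxylesterase gene, was at 125.7 CPM in replicate 10 and at 99.0 CPM in replicate 24, with medians of 0.52 and 1.68 CPM in the groups. LOC100121340 was high in the same 2 pools, at 171.7 and 196.5 CPM, and LOC100122694 was at 3141 and 1263 CPM in them. Their intervals were therefore wide, from −2.96 to 3.02 on the log2 scale for LOC100121340, and a group difference of several fold in either direction was not detectable with these pools.

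The other immune genes had log2 fold changes smaller than their SE, but pools differed widely in some of them. In five-foundress libraries ppo1 was at 58.3 CPM in replicate 10 and 4.25 CPM in replicate 14. In 10-foundress libraries it was at 61.8 CPM in replicate 18 and 3.61 CPM in replicate 19. The prophenoloxidase genes, whose products are activated to make melanin, had log2 fold changes of −0.04 ± 0.57 (ppo1) and 0.17 ± 0.27 (ppo3). The signalling adaptor gene Imd was at 10.5 to 17.2 against 10.6 to 17.6 CPM (0.03 ± 0.14). Gnbp1-2, a recognition protein gene, had a log2 fold change of −0.09 ± 0.36, and the protease inhibitor gene serpin5 one of −0.16 ± 0.34. The summed level of the 7 genes was 330.5 to 6336 CPM in the five-foundress and 341.6 to 5884 CPM in the 10-foundress libraries.

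Odorant receptors, the ligand-gated channels with which antennal neurons detect smells, leaned to the 10-foundress group as a family. Of 214 listed genes, 211 were tested and 57 had a mean of at least 100 counts. The log2 fold change was above 0 in 178 (84.4%), beside 53.2% of all genes tested, and the median was 0.26, beside 0.01 for all genes. An unadjusted p below 0.05 in edgeR's test was found for 4, a share close to the 1.81% of all genes tested, and 0 passed the adjusted threshold. Since the members vary together between pools, these counts describe 15 pools and not 211 independent genes.

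Their summed level was 259.4 to 953.9 CPM in the five-foundress libraries (median 374.1) and 380.3 to 969.0 CPM in the 10-foundress libraries (median 598.5). The five-foundress pools fell into 3 of 731.3 CPM or more (replicates 10, 11 and 16) and 4 of 374.1 CPM or less (replicates 12 to 15). The 10-foundress pools ranged from 380.3 CPM in replicate 19 to 944.8 and 969.0 CPM in replicates 17 and 18. The 4 lower five-foundress pools thus lay below every 10-foundress pool, and the 3 higher ones lay within the 10-foundress range. The median log2 fold change of the family was 0.12 without replicate 17 and 0.41 without replicate 10, and it was 0.15, 0.16 and 0.17 without replicates 12, 13 and 18. Without replicates 17 and 24 together it was 0.08, with 130 of the 211 genes above 0.

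The influence of single pools was broad. In replicate 10, 38 of the 57 odorant receptors with a mean of at least 100 counts were more than 2-fold above the median of the other five-foundress libraries, as were 21 in replicate 11 and 15 in replicate 16. In replicate 12, 25 were below 0.5 of it, as were 11 in replicate 15 and 9 in replicate 13. In the 10-foundress group, 31 were more than 2-fold above in replicate 17, and 8 were below 0.5 of the median of the others in replicate 19.

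Most single receptors had the direction of the family, but 32 of the 211 had a log2 fold change below 0. Or1 was at 27.0 to 260.4 CPM (median 72.0) against 61.8 to 270.8 CPM (median 124.7), with a log2 fold change of 0.32 ± 0.46. Or163 had the largest log2 fold change of the 57 receptors with a mean of at least 100 counts, 0.55 ± 0.42, and Or276 the lowest, −0.07 ± 0.17. Of the 4 with an unadjusted p below 0.05, Or25 (0.68 ± 0.32), Or180 (0.68 ± 0.29) and Or266 (0.69 ± 0.32) were higher and Or47 (−1.54 ± 0.67) was lower in the 10-foundress group, all with mean counts between 1.67 and 31.7 per library. Such counts of a few reads give no firm fold change.

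Gustatory receptors had no such direction. Of 46 of them, which detect tastants, 44 were tested, 22 had a log2 fold change above and 22 below 0, and the median was 0.01. Gr13 had the smallest p of the family with a mean of 3.47 counts per library (log2 fold change 1.11 ± 0.36). The summed level of the family was similar in all pools, from 20.1 to 24.6 and from 17.7 to 26.8 CPM. The 3 odorant binding proteins, which carry odorants to the receptors, all had a log2 fold change above 0, with a median of 0.06 that was −0.02 without replicate 13. Of these, OBP77 was at 17.8 to 69.3 against 20.5 to 97.8 CPM (0.39 ± 0.35), with replicates 10 and 16 high in the five-foundress group and replicates 17 and 24 high in the 10-foundress group.

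Families of detoxifying enzymes also differed between pools. Cytochrome P450 enzymes, which oxidise hormones and foreign compounds, had a summed level of 2869 to 7666 CPM (median 3492) against 3086 to 7282 CPM (median 5281). Five-foundress replicates 10, 11 and 16 (6415 CPM or more) and 10-foundress replicates 18 and 23 (7107 CPM or more) were the highest of their groups. Of the 44 listed and tested genes, 23 had a log2 fold change above 0, the median was 0.01, and 1 had an unadjusted p below 0.05, beside 1.81% of all genes (CYP6AS28P, −0.82 ± 0.36, with a mean of 13.9 counts).

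CYP6AQ8 was at 781.8 to 3712 CPM (median 1098) against 1210 to 3585 CPM (median 2264), a log2 fold change of 0.27 ± 0.41. Among the P450 genes that averaged 100 counts or more, the largest difference was that of CYP4G43, a member of the subfamily that makes cuticular hydrocarbons in Drosophila. It was at 27.6 to 362.5 CPM (median 169.5) against 2.97 to 304.3 CPM (median 34.0), and its log2 fold change of −1.31 ± 0.72 did not pass an unadjusted p of 0.05 in edgeR's test. CYP314A1, the enzyme that hydroxylates ecdysone to its active form, was 8.60 ± 1.00 (SD, n = 7) against 8.99 ± 1.01 CPM (SD, n = 8). Its log2 fold change was 0.07 ± 0.10 (SE), with an interval of −0.14 to 0.27.

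Carboxylesterases, which split esters and include detoxifying enzymes, had a summed level of 798.2 to 2588 CPM against 970.9 to 2639 CPM over 13 tested genes. CCE-A4 had the smallest p and the largest difference of the list, with 0.76 to 10.6 CPM (median 6.61) against 0.21 to 6.64 CPM (median 2.15) and a log2 fold change of −1.15 ± 0.67. CCE-B6 was at a median of 593.7 against 1093 CPM with wide overlap, 322.5 to 1761 against 563.4 to 1924 CPM (log2 fold change 0.28 ± 0.43). Of 16 glutathione transferases, which conjugate glutathione to reactive compounds, 11 had a log2 fold change above 0 and 10 of the 15 with a mean of at least 100 counts had an interval within 1.5-fold. GstO2 had the smallest p of these, with medians of 57.1 and 64.2 CPM (0.12 ± 0.09). GstD1 was at 533.5 to 1066 against 516.9 to 1451 CPM (0.16 ± 0.25), and in replicate 17 it was more than 2-fold above the median of the other 10-foundress libraries, with GstD3, GstD5, GstS2 and GstS5. None of the carboxylesterases and glutathione transferases had an unadjusted p below 0.05 in edgeR's test.

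**Figure D4:**
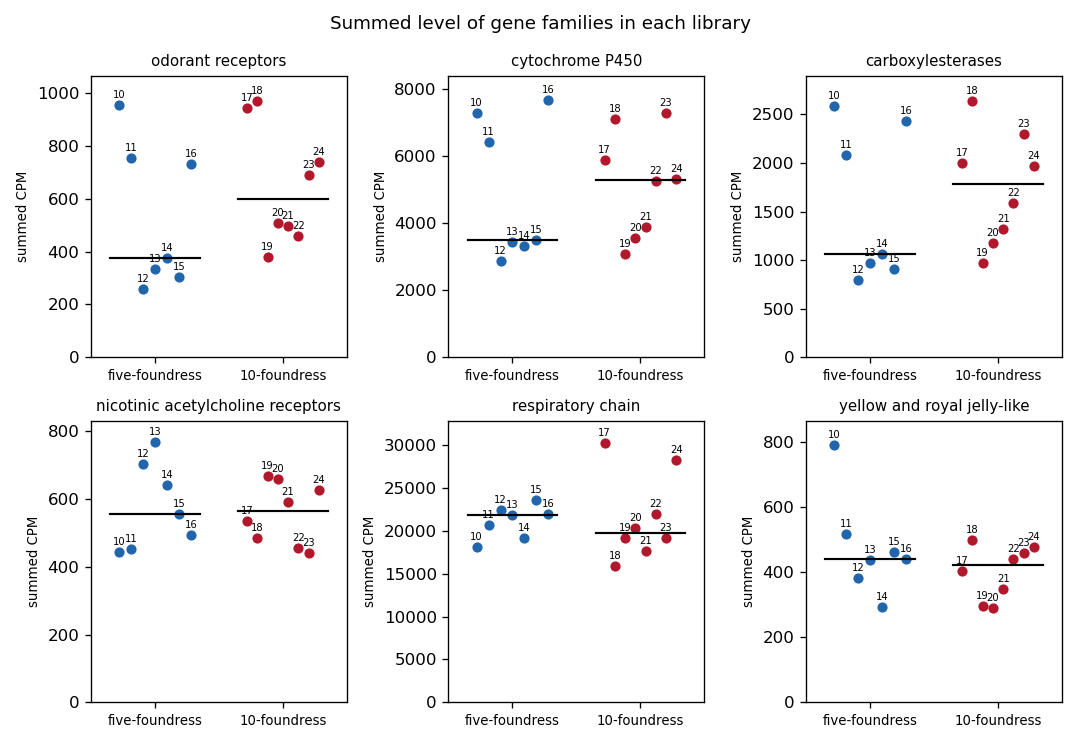
Summed CPM of 6 gene families (y axis, from 0) in each library, with replicate numbers and a black line at the group median (blue, five-foundress; red, 10-foundress). Five-foundress replicates 10, 11 and 16 are high in odorant receptors, cytochrome P450 and carboxylesterases and low in nicotinic acetylcholine receptors, and 10-foundress replicates 17 and 24 are highest in the respiratory chain.

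Genes of neuronal signalling had small differences between the groups. Of 12 nicotinic acetylcholine receptor subunits, which form the fast excitatory receptors of the insect brain, 4 had a log2 fold change above 0, the median was −0.05, and the 10 with a mean of at least 100 counts all had an interval within 2-fold. The summed level was 443.4 to 766.6 against 441.2 to 668.5 CPM. In the five-foundress group the lowest pools were replicates 10, 11 and 16, which were the highest in odorant receptors. The subunit with the smallest p was nAChRa12, with medians of 26.8 and 31.2 CPM (0.19 ± 0.11).

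Of 5 other ligand-gated channels of the same superfamily, HisCl1, the chloride channel opened by histamine, had the smallest p (−0.16 ± 0.21). The channels GluCl, gated by glutamate, and LCCH3, of the GABA receptor type, were at −0.11 ± 0.26 and 0.06 ± 0.24. Of 9 ion channel and synaptic genes, 4 had a log2 fold change above 0 and all 9 had an interval within 2-fold. Syt1 was at 225.7 to 302.3 against 245.9 to 310.5 CPM (0.08 ± 0.10), and the G protein subunit gene Gnao had medians of 65.4 and 78.1 CPM (0.18 ± 0.10). The neuropeptide gene Pdf, known for its role in daily rhythms, was at 162.7 to 265.0 against 134.4 to 397.0 CPM (0.16 ± 0.21), and the inotocin receptor gene ITR had a log2 fold change of −0.27 ± 0.18. Eth, with the smallest p among the peptide genes, had a mean of 2.73 counts (−0.94 ± 0.57). None of these channel, synaptic and peptide genes had an unadjusted p below 0.05 in edgeR's test.

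Some channel genes were low and others high in the same 10-foundress pools. In replicate 17, 3 of the 10 nicotinic receptor subunits, 3 of the 5 other ligand-gated channels and 3 of the 9 ion channel and synaptic genes were below 0.5 of the median of the others of the group, and in replicate 24 it was 2 of each. Para, the voltage-gated sodium channel of action potentials, was at 36.8 to 72.0 CPM in the five-foundress group, while 10-foundress replicates 17, 24 and 22 were at 13.3, 18.5 and 21.4 CPM and the 10-foundress median was 60.2 CPM. Slo, a potassium channel opened by calcium, was at 20.7, 35.9 and 32.0 CPM in these 3 pools against a median of 79.3 CPM. The subunit nAChRa4 was at 7.63, 7.62 and 15.9 CPM in replicates 17, 24 and 22 against a median of 29.9 CPM, and nAChRa3 was at 12.3, 14.3 and 17.45 CPM against 41.2 CPM. The subunit nAChRa8, in contrast, was highest of its group in replicates 24 and 17, at 234.8 and 220.4 CPM against a median of 158.6 CPM. GRD, of the other ligand-gated channels, was also above its median of 259.8 CPM in these pools, at 353.2 and 314.2 CPM.

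Replicates 17 and 24 were set apart in other ways. The respiratory chain, the mitochondrial complexes of oxidative phosphorylation, summed to 30260 CPM in replicate 17 and 28320 CPM in replicate 24, and to 15950 to 23610 CPM in the other 13 libraries. The muscle list held only Tm1 and Tm2, which encode tropomyosins. They were at 1122 and 36.8 CPM in replicate 17, each more than 2-fold above the median of the others of its group. In replicate 24 they were at 651.6 and 27.8 CPM, less than 2-fold above it. Their sum was 432.6 to 679.5 CPM in the 10-foundress libraries other than replicate 17 and 541.9 to 875.7 CPM in the five-foundress libraries. The part of cell composition or RNA quality in these values was not tested.

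Over all 9343 genes of 100 counts or more on average, replicate 17 had 398 (4.26%) genes more than 2-fold above and 921 (9.86%) below 0.5 of the median of the other 10-foundress libraries. Replicate 24 had 249 above and 699 below. Of the genes that were low, 431 were shared, which is 46.8% of those of replicate 17 and 61.7% of those of replicate 24. The pools with the fewest such genes were 10-foundress replicate 21, with 84 above and 54 below, and five-foundress replicate 15, with 57 and 112.

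Other pools stood out upward. Five-foundress replicate 10 had 510 genes more than 2-fold above and 35 below, and 10-foundress replicate 18 had 521 above and 49 below. These 2 pools of different groups shared 298 of the genes that were high, or 58.4% and 57.2% of their lists. Replicates 23 and 11 had 431 and 336 genes above, while five-foundress replicate 12 had 11 above and 277 below. The gene farthest from the others in replicate 13 was LOC103316197, at 131.0 CPM there, at 357.5 and 524.7 CPM in replicates 11 and 15 and at 134.3 CPM in 10-foundress replicate 17, with medians of 19.6 and 5.32 CPM in the groups. That of 10-foundress replicate 20 was LOC100117180, with 0 reads there and 0.59 to 18.1 CPM in the other 7 10-foundress libraries.

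In the respiratory chain, 57 of 69 genes (82.6%) had a log2 fold change above 0, but the median was 0.05 and 62 of the 64 with a mean of at least 100 counts had an interval within 1.5-fold. The member with the smallest p was the gene labelled Cox7c, 1 of 2 or more of that symbol, at 68.5 to 124.1 against 77.7 to 172.5 CPM (0.25 ± 0.16). The most abundant pools of the family were both in the 10-foundress group, while the median sum was higher in the five-foundress group (21830 against 19780 CPM). Leaving out single libraries moved the median log2 fold change of the family between −0.03 (without replicate 17) and 0.13 (without replicate 18). Over all 21 alternatives, which included removals of library pairs, it ranged from −0.16 to 0.13. The sign of this median thus depended on the alternative used. The count of members and the median sum also differed in direction.

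The yellow and royal jelly-like genes, a family of secreted proteins named from Drosophila pigmentation and honeybee larval food, leaned the other way. Of 16 genes, 13 had a log2 fold change below 0 and 3 (18.8%) above 0, beside 53.2% of all genes, and the median was −0.18. Without replicate 10 the median was −0.10, with 5 genes above 0. Mrjpl3 was at 51.3 to 303.9 CPM (median 83.5) against 34.4 to 134.1 CPM (median 75.6), a log2 fold change of −0.53 ± 0.45. Y-g2b, with the smallest p, had a mean of 0.20 counts. Y-h (−0.34 ± 0.18) and Y-e3 (−0.52 ± 0.29) did not reach an unadjusted p of 0.05 in edgeR's test. The summed level was highest in five-foundress replicate 10 (790.3 CPM) and was 291.0 to 518.6 CPM in the other libraries.

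Of 51 serine proteases and homologues, 18 had a mean of at least 100 counts, 27 had a log2 fold change above 0, and 3 in each direction had an unadjusted p below 0.05 in edgeR's test, beside 1.14% of all genes for the higher and 0.669% for the lower direction. SPH42 was at 67.9 to 113.9 CPM (median 103.4) against 53.1 to 105.9 CPM (median 70.9), a log2 fold change of −0.39 ± 0.16 with overlap of the groups. SP48 had 231 reads in 10-foundress replicate 20, and 7 or fewer in every other library, with 0 in 6 of the 7 five-foundress libraries. No fold change is given for it, as nearly all its reads came from 1 pool. SP47 and SP122 were also low in reads, with means of 9.53 and 2.47 counts.

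Of 47 cuticular proteins, which build the exoskeleton, 45 were tested, 23 had a log2 fold change above and 22 below 0, and none had an unadjusted p below 0.05. Their summed level was 442.3 to 901.1 against 384.3 to 1293 CPM, with replicate 17 highest. The 3 hexamerins, storage proteins made by the fat body, had log2 fold changes of −0.28 to −0.07, and their sum was 9.58 to 25.4 CPM over all libraries. Hex70b changed sign when replicate 11, its highest library at 17.7 CPM, was left out (−0.28 ± 0.43 and 0.15).

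Genes of sex determination, which set the sex of the wasp itself, had small differences between the groups. Of 5 listed, 4 were tested. Dsx, the switch gene at the end of the cascade, was at 271.8 to 323.0 against 201.5 to 335.3 CPM (−0.11 ± 0.11). Fru, known for its role in sex-specific nervous circuits of Drosophila, was at 129.1 to 202.3 against 111.9 to 183.7 CPM (−0.03 ± 0.13). Tra, which keeps the female splice form of its targets, was at 1011 to 1826 against 1002 to 2272 CPM (0.05 ± 0.18). These 3 had an interval within 1.5-fold. Nvu1 had a mean of 33.7 counts and a log2 fold change of 0.14 ± 0.49.

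The methylation genes Dnmt1a, a maintenance DNA methyltransferase, and Mbd, which binds methylated DNA, were at 0.05 ± 0.15 and −0.03 ± 0.11, both with an interval within 1.5-fold. The germ plasm genes oskar and nanos, known for the determinants that mothers place in eggs, were at −0.05 ± 0.15 and 0.24 ± 0.42, the latter with a mean of 4.13 counts. Of 12 cell division genes, 5 had a log2 fold change above 0, and the smallest p was that of the mitotic gene Bora (0.23 ± 0.18). Lop1 was at 5941 to 11560 CPM in the five-foundress group (median 8725) and at 5579 to 12030 CPM in the 10-foundress group (median 8411), with a log2 fold change of −0.08 ± 0.17. The marker sums of haemocytes, 14.5 to 66.0 against 15.0 to 68.0 CPM, and of germline and dividing cells, 8.39 to 13.8 against 8.65 to 14.5 CPM, overlapped between the groups as well.

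The number of genes at an unadjusted p below 0.05 moved with single pools. It was 165 without 10-foundress replicate 22 and 530 without replicate 18. Without replicate 17 it was 402, of which 197 had a higher and 205 a lower mean in the 10-foundress group, and without replicate 24 it was 381. Of the 530 genes without replicate 18, 201 were among the 246 of the full set. When replicates 17 and 24 were both left out, a choice made after their values had been seen, 1141 genes (8.4% of those tested) had such a p, of which 158 were among the 246. With each library left out in turn, and with these 2 left out, 0 genes had an adjusted p below 0.05, and the smallest adjusted p was 0.591 (edgeR's quasi-likelihood test).

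**Figure D5:**
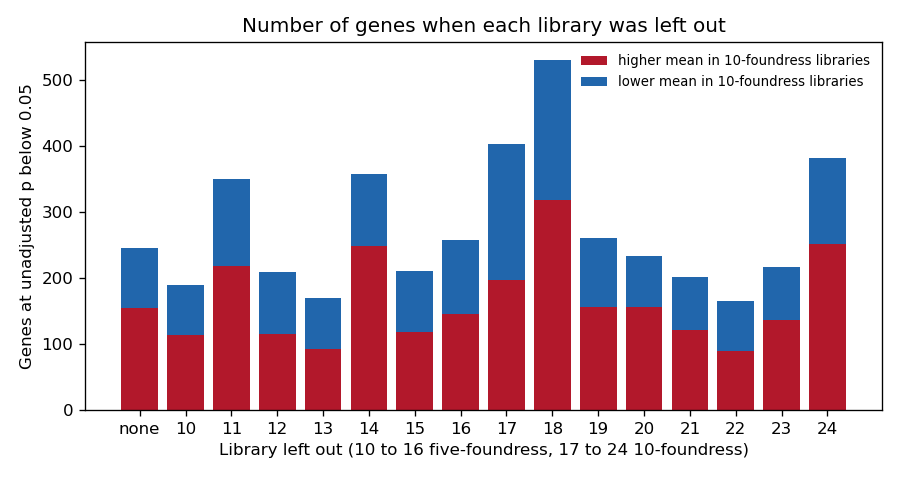
Number of genes with an unadjusted p below 0.05 in edgeR's test (y axis, from 0) with no library left out and with each of the 15 libraries left out (x axis), split into genes of higher (red) and of lower (blue) mean in the 10-foundress libraries. The number is 246 with none left out and lies between 165 (without replicate 22) and 530 (without replicate 18).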

How the data were processed

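RNA of pooled heads was measured by poly(A)-selected paired-end sequencing. The deposited counts, 1 per gene and library, are whole numbers that the authors left without normalization, for 23 libraries. The submitters' processing notes name cutadapt 1.8.3, TopHat2 2.0.14 and HTSeq 6.0.1. Whether counting used the strand is not given in the sources used here, so that overlapping and antisense genes, like near-identical copies, are uncertain. Lists were matched by symbol, since product names are not paired with the genes, and 74 symbols belong to more than 1 gene. Planned lists without a matching symbol (ionotropic receptors, chemosensory proteins, clock, activity-regulated and heat shock genes, glia, vitellogenin and others) were not used.

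Groups were taken from the labels. The main test was the quasi-likelihood test of edgeR 4.0.16 in R 4.3.3 (TMM normalization, Benjamini-Hochberg adjustment over all genes tested, 1 read or more). The fit held 22 libraries, without single-foundress replicate 2, which the study removed. Single-foundress libraries entered the normalization, the filter of 1 read or more and the estimate of the spread, but not the difference tested. Each SE was obtained from the log2 fold change and its F statistic, and intervals are at 95%. The p-values measure the spread between pools of different females. The share of variance was computed on log2 CPM (prior count 2) and tested by enumeration. For each pool, genes were counted by their ratio to the median of the other libraries of its group.

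Genes were named if they had 1 of the 10 smallest p or, at an unadjusted p below 0.05, 1 of the 5 largest differences in a direction (mean of at least 100 counts), the smallest p of a list or of all genes, the largest ratio in a pool, or were named by the study (CYP314A1). Other genes were named after their values were seen. The libraries, lists and tests were chosen with earlier results of these data known.

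Alternatives used DESeq2 1.42.0, limma 3.58.1 and sva 3.50.0 (svaseq, 4 surrogate variables), other normalizations, filters and samples, and each library left out. The tests of edgeR, DESeq2 and limma were run on simulated data in which genes varied independently of each other. The differences that many genes share between pools here were not simulated, so that no support is drawn from that run.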

Additional observations from a re-analysis of the deposited data

Results flagged for a closer look

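In 6 of 162 sets of values (a gene, a list's sum or the library totals in 1 group), the highest library stood apart by Dixon's criterion. For independent sets of normally distributed values that were not picked by their values, chance gives about 1 in 20. Each number here is the gap to the nearest library divided by the range of the group on the log2 CPM scale. LOC100122011, the gene with the smallest unadjusted p at any level, had 59 reads in 10-foundress replicate 24 (1.95 CPM, ratio 0.857) and 0 to 0.07 CPM in the other 14 libraries. SP48 was highest in 10-foundress replicate 20 (6.99 CPM, ratio 0.656) and, with a single read, in five-foundress replicate 16 (ratio 1). The cuticular protein gene CPR8 was highest in 10-foundress replicate 17 (0.51 CPM, ratio 0.536). LOC100124007 was at 13.6 CPM in replicate 17 (ratio 0.582), with 0.88 CPM as the next value of its group, and at 53.2 CPM in five-foundress replicate 15. LOC100680109 was at 60.8 CPM in replicate 17 (ratio 0.629) and at 0.06 to 1.12 CPM in the other 10-foundress libraries. Most sets were of genes named for extreme values, and all share the same libraries, so that the rate of 1 in 20 does not apply to them. No conclusion on chance is drawn. LOC100680109 had been named for its ratio in replicate 17, so that this gap was partly chosen. LOC100122011 had been named for the smallest p of all genes, and SP48 and CPR8 for that of their lists. Their gaps were likewise partly chosen. The causes were not tested.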

How the results depend on the processing

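The count of 0 genes past the adjusted threshold was the same under all 29 alternatives, and the smallest adjusted p of any was 0.474, with surrogate variables. The genes at an unadjusted p below 0.05, 246 in all, were 1018 with limma voom, 743 with surrogate variables (337 higher and 406 lower), 161 with filterByExpr, 105 with a mean of at least 100 counts, 165 to 530 with single libraries left out, and 1141 without replicates 17 and 24. The last 2 filters tested fewer genes; for the others the cause was not tested. The share of variance was 3.83% to 6.82%. The count of genes whose groups did not overlap was 1 to 7 with single libraries left out and 0 with library totals. Other normalizations shifted the median of all genes by at most 0.02. The median log2 fold change of cuticular proteins (0.04) was −0.22 without replicates 17 and 24, and that of serine proteases and homologues (0.05) was −0.20. The median of cell division genes (−0.04) was 0.11 without replicates 10 and 24.

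Of the log2 fold changes of single genes, most kept their sign. Removal of 3 pairs of libraries was chosen after the data had been seen. Without replicates 11 and 15, LOC100114068 was 0.54, LOC100123845 0.15, LOC100124007 1.25, LOC100120914 1.78, LOC100114502 0.35, LOC100118178 0.85, LOC100679631 0.50, Hex70b 0.28 and LOC100121340 −0.41. Without replicates 17 and 24, LOC100680109 was −3.27, LOC100121340 −3.26 and ppo3 −0.20. Without replicates 10 and 24, CCE-D5 was 0.99, LOC100122694 0.57, Def1-1 0.14, Def1-2 0.00062, LOC100678414 0.94 and ppo3 −0.089. With DESeq2, CCE-D5 was 0.79, LOC100680109 −3.10 and LOC100122694 1.44. With limma voom, CCE-D5 was 1.09, LOC100679141 −0.010, LOC100680109 −1.50 and Fru 0.028. With surrogate variables, CCE-D5 was 2.22, LOC100680109 −0.90, Fru 0.028, LOC100122694 0.83, Def1-1 0.83 and Def1-2 0.67. Def1-1 was 0.020 with upper-quartile factors or the 15 libraries alone, 0.022 with filterByExpr and 0.0066 with the mean filter. LOC100121340 was −0.042 with library totals and −0.00013 with all 23 libraries.

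With single libraries left out, signs varied for CCE-D5 (−3.00 to 3.55), Def1-1 (−1.31 to 1.42), Def1-2 (−1.30 to 1.12), Dnmt1a (−0.039 to 0.12), Fru (−0.079 to 0.026), Hex70b (−0.45 to 0.15), LOC100121340 (−3.42 to 4.08), LOC100122694 (−1.82 to 1.49), LOC100124007 (−4.87 to 1.41), LOC100678414 (−3.53 to 0.80), LOC100680109 (−3.39 to 2.67), nanos (−0.077 to 0.57), oskar (−0.13 to 0.0012) and ppo3 (−0.025 to 0.28). The causes were not tested. No paired analysis was possible because the labels tie pools neither to each other nor to days of set-up.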
